A study of Homo sapiens with 12 samples.

Results

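The genes described here are 10 cyclins and cyclin-dependent kinases (CDKs): the D-type cyclins CCND1 and CCND3 with the kinase CDK6, the E-type cyclins CCNE1 and CCNE2 with CDK2, the A-type cyclin CCNA2, and the B-type cyclins CCNB1 and CCNB2 with CDK1. They were chosen by name from the 34643 rows of one RNA-seq table, and all 10 were detected well enough to be tested among 15419 genes. The choice was made with earlier results of these data known. Counts of called genes set beside the shares over all genes are therefore descriptions and not an independent test. The RNA came from LNCaP cells, an established androgen-responsive line of human prostate cancer. The cells carried a lentiviral short hairpin RNA driven by the U6 promoter and were kept under puromycin, so both lines had been transduced and selected. In the shScramble line the hairpin was a scrambled control, and in the shTMEFF2 line it was directed at TMEFF2, a transmembrane protein gene of prostate cells, with the hairpin sequence used for sequencing not given in the sources used here. On day 17 after hairpin delivery, each line had spent 24 h in hormone-depleted medium and then 24 h with 10 nM dihydrotestosterone (DHT+), the potent natural androgen, or with the ethanol vehicle (DHT-). Each of the 4 groups held 3 libraries, from separate treatments and extractions of cells that came from 2 transductions. Which transduction a library came from is not given, so p-values measure the spread between these libraries only. Totals were 19450866 to 22612046 estimated counts per library.

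Cyclins rise and fall through the cell cycle and switch on the CDKs to which they bind. D-type cyclins with CDK4 or CDK6 start the phosphorylation of the retinoblastoma protein in G1, E-type cyclins with CDK2 carry the cell into S phase, cyclin A acts in S and G2, and cyclin B with CDK1 drives entry into mitosis. In LNCaP cells, androgen is known both as a growth signal and, at higher doses, as a brake on growth. In RNA from whole cultures, a larger share of cells in the phase in which a gene is expressed and more of its RNA in each cell cannot be told apart.

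Promoter sequences are shown first for CCNA2, CCNB1, CCNB2 and CDK1, whose mRNAs rose together with DHT in shTMEFF2 cells in the results that follow. The promoter of CCNE1, which holds none of the motifs put in capitals, is also shown. CCNE1 was higher with DHT in shTMEFF2 cells (edgeR adjusted p = 0.0263) but stayed under 1.5-fold and was not called. The sequences are from RefSeq on GRCh38.p14, hold the 200 bases before the annotated start, and read 5′ to 3′ on the strand of the gene. A promoter entry was found for 7 of the 10 genes, and CCND1, CCNE2 and CDK2 are named only. Since CCNE2 and CDK2 also rose in shTMEFF2 cells, whether the motifs go with the response was not tested. Capitals mark CCAAT boxes (CCAAT), the cell cycle genes homology region (TTTGAA or TTCGAA) and the AGAACA hexamer of androgen response elements, each searched on both strands, so a motif on the opposite strand appears as its reverse complement.
CCNA2, chr4:121823884-121824083, minus strand: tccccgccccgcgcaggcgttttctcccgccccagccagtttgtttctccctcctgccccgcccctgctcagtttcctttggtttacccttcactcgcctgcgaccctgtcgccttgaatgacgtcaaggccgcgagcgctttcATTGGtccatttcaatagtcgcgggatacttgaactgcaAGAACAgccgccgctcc
CCNB1, chr5:69166950-69167149, plus strand: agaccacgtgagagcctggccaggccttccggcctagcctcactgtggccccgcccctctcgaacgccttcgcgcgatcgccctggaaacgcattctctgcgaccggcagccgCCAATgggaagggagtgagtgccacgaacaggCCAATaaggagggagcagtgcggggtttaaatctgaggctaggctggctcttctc
CCNB2, chr15:59104946-59105145, plus strand: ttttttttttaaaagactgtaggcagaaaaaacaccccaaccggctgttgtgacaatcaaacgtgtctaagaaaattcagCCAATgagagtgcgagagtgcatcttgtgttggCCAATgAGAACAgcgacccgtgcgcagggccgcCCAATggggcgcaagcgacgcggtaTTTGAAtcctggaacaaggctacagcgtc
CDK1, chr10:60778131-60778330, plus strand: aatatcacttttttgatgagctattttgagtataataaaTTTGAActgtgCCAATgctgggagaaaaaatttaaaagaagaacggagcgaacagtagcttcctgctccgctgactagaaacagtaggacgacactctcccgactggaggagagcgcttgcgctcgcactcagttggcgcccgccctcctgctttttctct
CCNE1, chr19:29811791-29811990, plus strand: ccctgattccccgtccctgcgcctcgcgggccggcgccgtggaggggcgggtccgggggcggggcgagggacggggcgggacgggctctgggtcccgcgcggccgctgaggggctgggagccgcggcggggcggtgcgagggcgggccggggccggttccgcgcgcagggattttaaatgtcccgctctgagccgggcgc

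Over the windows searched, which run from 250 bases before the start to 50 after it, CCAAT was found in 4 of the 7 promoters, against 34.6% of all 35116 promoters in the table. Those 4 promoters were CCNA2, CCNB1, CCNB2 and CDK1, with 4 matches in CCNB2. The cell cycle genes homology region, as TTTGAA or TTCGAA, was found in 2 of 7, CCNB2 and CDK1, against 16.4% of all promoters. Other spellings of this element were not searched, so the remaining promoters may hold one. AGAACA was found in CCNA2 and CCNB2, against 14.8%. An E2F site (TTTGGCGC, TTTCCCGC, TTTCGCGC or TTTGCCGC) was found in 1 of 7, 20 bases after the start of CDK1, against 3.3%. The GC box GGGCGG, left in lower case, was found in all 7, against 45.0%, and in CCNB2 a GC box overlaps a CCAAT box. These matches describe letters in a window and do not show that a factor binds there.

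Levels are given as CPM, which here are the deposited estimated counts, not raw read counts, scaled to a common library size with TMM factors. Between genes they were compared as CPM per kb of the principal (MANE) transcript, which approximates the length that the reads came from. In untreated shScramble cells CDK1 was the highest of the 10 mRNAs by this measure, at 92.2 ± 7.66 CPM per kb (SD, n = 3). CCND1 followed at 67.4 ± 2.28 CPM per kb and CCNB1 at 56.9 ± 7.22 CPM per kb, and the ranges of these 2 genes overlapped. Without length correction CCND1 was above CDK1, at 286 ± 9.67 against 174 ± 14.5 CPM, so their order depends on the transcript length used. CCNB2 stood at 28.8 ± 3.62, CDK2 at 22.0 ± 2.16, CCND3 at 18.5 ± 1.14 and CCNA2 at 14.5 ± 2.38 CPM per kb, with no overlap between neighbours. CCNE2, at 8.59 ± 0.892, and CCNE1, at 8.06 ± 0.936 CPM per kb, could not be ordered because their ranges overlapped. CDK6 was far below the rest, at 0.142 ± 0.0478 CPM per kb, while CDK4, the other kinase that binds the D-type cyclins, had 184 ± 9.47 CPM against 1.65 ± 0.558 CPM for CDK6, without length correction. Exons of CCNA2, CCND1, CCNE2, CDK2 and CDK6 overlap on the opposite strand with exons of EXOSC9, LTO1, INTS8, PMEL and CDK6-AS1, respectively. Whether counting used the strand is not given in the sources used here, so the values of these 5 genes may hold reads of their neighbours.

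TMEFF2 itself was measured at 77.8, 73.8 and 103 CPM in shScramble DHT-, 173, 117 and 169 CPM in shScramble DHT+, 68.6, 39.4 and 81.7 CPM in shTMEFF2 DHT-, and 142, 90.1 and 115 CPM in shTMEFF2 DHT+. The mean was lower in the shTMEFF2 line at both DHT levels, but the lines overlapped. Each shTMEFF2 library was also below the shScramble library of the same replicate number, at both DHT levels. Whether a number marks a pair is not stated, and the test below leaves the number out. The log2 difference was -0.43 ± 0.25 (SE) at DHT- and -0.41 ± 0.25 at DHT+, with adjusted p-values of 0.503 and 0.304 by edgeR's quasi-likelihood test, so a fall of the targeted mRNA did not pass the test in these libraries. The study itself reported, by Western blot, that some of its TMEFF2 hairpins appreciably lowered the protein in LNCaP cells. It also showed TMEFF2 mRNA levels in the transduced cells, and those measurements are separate from the libraries described here. The 8 luminal prostate markers examined were all above 3 counts in every library, whereas KRT5 of basal cells was at 0 throughout and CD3E of T cells was at or under 3 counts. Other markers of the list were detected, with COL1A1 of stromal cells at 240 to 633 counts per library, VWF of endothelial cells at 236 to 635, PTPRC of leukocytes at 63 to 170 and KRT14 of basal cells at 0 to 29. The summed level of 11 markers of other cell types was 40.2 to 49.7 CPM in shScramble DHT-, 31.3 to 31.8 in shScramble DHT+, 52.2 to 59.8 in shTMEFF2 DHT- and 40.8 to 50.0 in shTMEFF2 DHT+, and its part in the results was not tested. KLK3, which encodes prostate-specific antigen and is a classical androgen target, rose with DHT by 1.96 on the log2 scale in shScramble and by 2.45 in shTMEFF2 (edgeR adjusted p = 3.88e-05 and 1.12e-04). No library stood apart, with root mean square deviations from the group mean between 0.265 and 0.293 on the log2 scale.

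**Figure D1:**
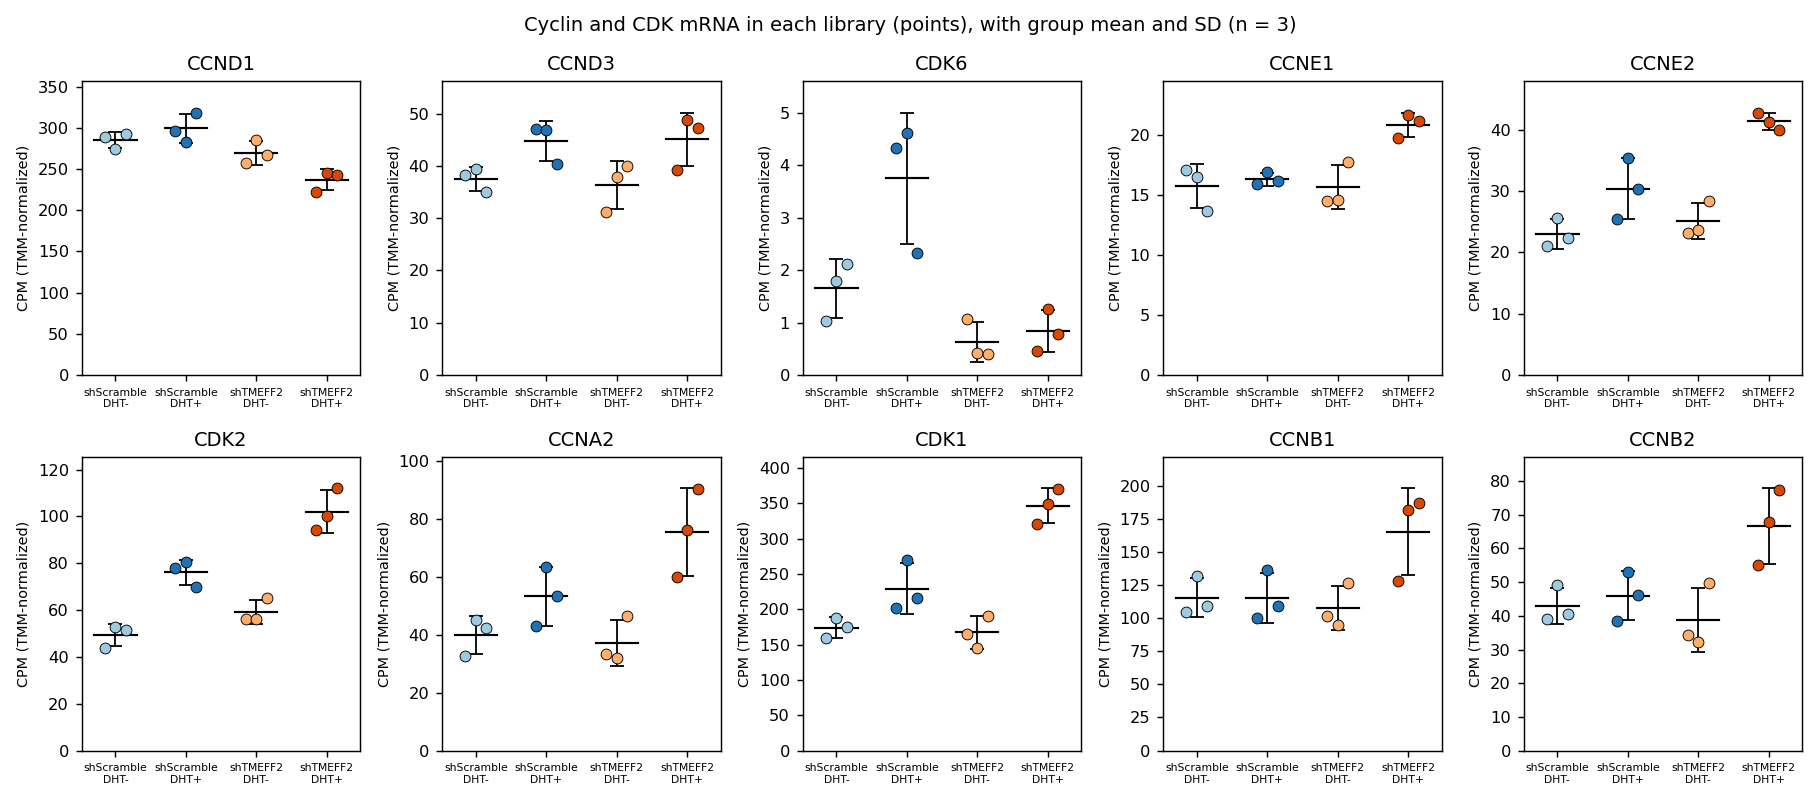
TMM-normalized CPM (vertical axes, from 0) of the 10 genes in each of the 12 libraries, shown as points by group, with the group mean (horizontal bar) and SD (n = 3). The 3 shTMEFF2 DHT+ libraries lie above those of every other group for CDK1, CDK2, CCNB2, CCNE1 and CCNE2, and below them for CCND1, while CDK6 is highest in shScramble DHT+.

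The first question was which of these genes responded to DHT in control cells. A gene is said to have risen or fallen, or is called, where its fold change reached 1.5 and its adjusted p was 0.05 or lower, as the study did. In shScramble cells 1 of the 10, CDK2, rose with DHT and none fell, where 5.45% of all genes tested rose and 6.45% fell. CDK1 and CCNE2 also had an adjusted p of at most 0.05 but stayed under 1.5-fold, which makes 3 of 10 higher by the p-value alone against 14.4% of all genes, and none of 10 lower against 12.6%. Libraries of the DHT+ and DHT- groups did not overlap for 4 genes, all higher with DHT, against 21.3% of all genes, and for none that was lower, against 20.5%. The median log2 fold change of the 10 was 0.33, against -0.01 for all genes tested.

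In shTMEFF2 cells 6 of the 10 genes rose with DHT, namely CDK1, CCNA2, CDK2, CCNB2, CCNE2 and CCNB1, and none fell. Of all genes tested, 3.28% rose and 1.6% fell. CCNE1 was higher with an adjusted p of at most 0.05 but under 1.5-fold, which gives 7 of 10 by the p-value alone against 7.84% of all genes, with none lower against 5.21%. Groups did not overlap for 7 genes that were higher, against 15.6% of all genes, and for 1 gene that was lower, CCND1, against 15.7%. The median log2 fold change was 0.67, against -0.02 over all genes.

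Between the lines, none of the 10 genes was called at DHT-, where 0.298% of all genes were called higher in shTMEFF2 and 0.272% lower. By the adjusted p alone none passed either, against 0.623% higher and 0.493% lower. The lines did not overlap for 1 gene, CDK2, which was higher in shTMEFF2, against 9.35% of all genes, and for none that was lower, against 9.18%. By unadjusted edgeR p-values of at most 0.05, CDK2 was higher and CDK6 lower at DHT-, and DESeq2 and limma-voom also called none of the 10. At DHT+ 1 gene was called higher in shTMEFF2 cells, CDK1, and 1 lower, CDK6, where 3.03% of all genes were higher and 3.74% lower. By the p-value alone 5 were higher (CDK1, CDK2, CCNE2, CCNB1 and CCNE1), against 6.93% of all genes, and 2 were lower (CDK6 and CCND1), against 9.09%. The lines did not overlap for 5 genes that were higher at DHT+, against 15.5% of all genes, and for 2 that were lower, against 17%. The change with DHT in shTMEFF2 minus that in shScramble, tested as an interaction, had an adjusted p of at most 0.05 for CDK1 only among the 10, where 1.65% of all genes had a higher and 3.29% a lower response. By the unadjusted p of at most 0.05, the response was higher in shTMEFF2 cells for CDK1, CCNB1, CCNB2, CCNA2 and CCNE1, against 8.06% of all genes, and lower for CCND1, against 9.48%. It was above 0 for 8 of the 10 genes, against 50.9% of all genes.

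**Figure D2:**
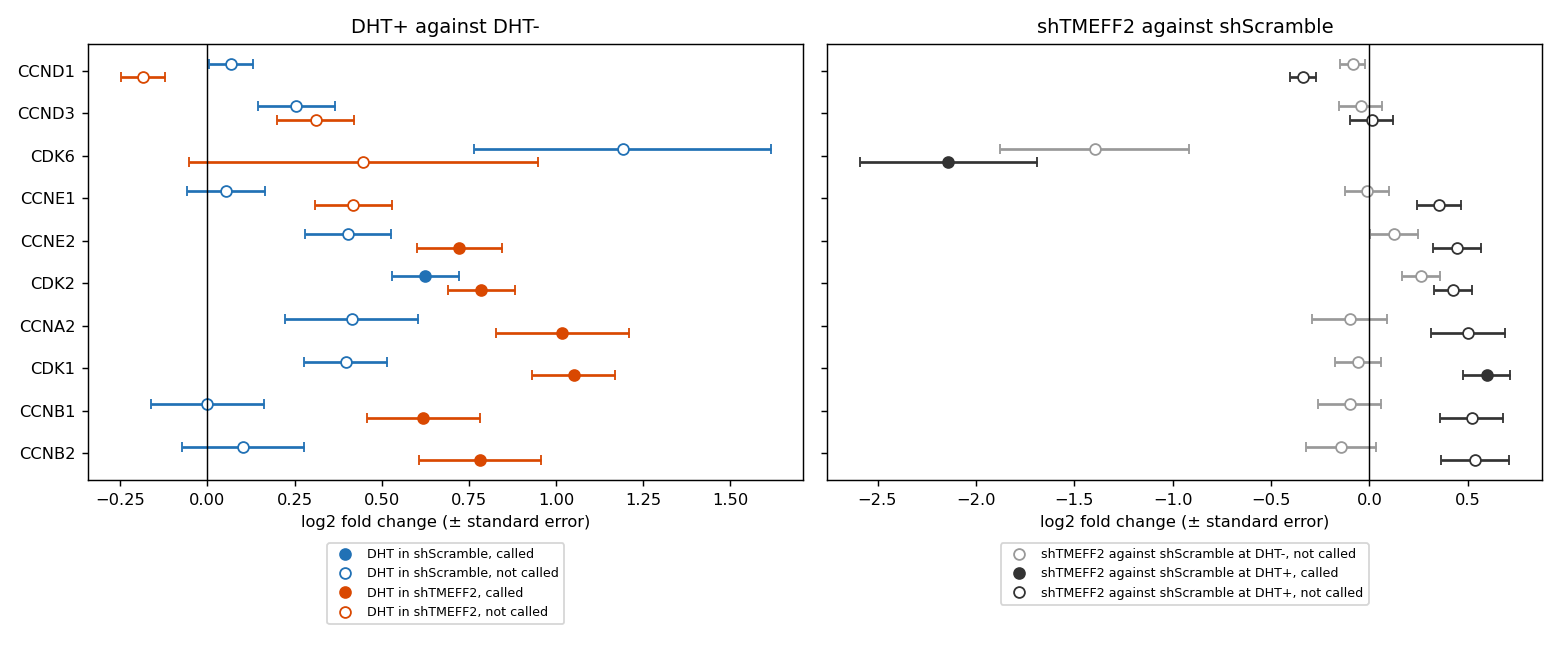
Log2 fold change with its standard error (horizontal axis) for each gene, for DHT+ against DHT- within each line (left) and shTMEFF2 against shScramble at each DHT level (right), with filled points for called genes. The left panel shows 1 called gene in shScramble and 6 in shTMEFF2, and the right panel shows called genes, CDK1 and CDK6, only at DHT+.

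The genes of G1 came first in role. CCND1, the cyclin that growth signals induce in early G1, was measured at 289, 275 and 293 CPM in shScramble DHT- and 297, 283 and 319 CPM in shScramble DHT+. In shTMEFF2 cells it was measured at 257, 285 and 267 CPM without DHT and 222, 245 and 243 CPM with it. The shTMEFF2 DHT+ libraries were the lowest of all 12, and the shScramble groups overlapped. With DHT the log2 fold change of CCND1 was 0.07 ± 0.06 (SE, edgeR adjusted p = 0.47) in shScramble and -0.18 ± 0.06 (adjusted p = 0.0788) in shTMEFF2, so neither passed. Between the lines at DHT+ it was -0.34 ± 0.06, a ratio of 0.791 with an edgeR adjusted p of 0.00342, which is smaller than the 1.5-fold limit. CCND1 had the tightest replicates of the 10, with a within-group SD of 0.0731 on the log2 scale against a median of 0.156 over all genes.

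CCND3, the other D-type cyclin, ranged from 35.0 to 39.5 CPM in shScramble DHT-, 40.4 to 47.0 in shScramble DHT+, 31.1 to 40.0 in shTMEFF2 DHT- and 39.3 to 48.8 in shTMEFF2 DHT+. Its levels were higher with DHT in every shScramble library, while the shTMEFF2 groups overlapped. The log2 fold changes with DHT were 0.25 ± 0.11 in shScramble and 0.31 ± 0.11 in shTMEFF2, and neither passed (edgeR adjusted p = 0.108 and 0.0843). Their difference was 0.06 ± 0.16, with an adjusted p of 0.904 by edgeR.

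CDK6, a kinase partner of the D-type cyclins, was measured at 1.03, 1.80 and 2.12 CPM in shScramble DHT- and 4.33, 4.62 and 2.33 CPM in shScramble DHT+. In shTMEFF2 cells it was measured at 1.07, 0.410 and 0.405 CPM without DHT and 0.460, 1.26 and 0.790 CPM with DHT. The shScramble DHT+ libraries were the highest and did not overlap with any other group. At DHT+ CDK6 was called lower in shTMEFF2 cells, with a log2 difference of -2.14 ± 0.45 and a ratio of 0.227 (edgeR adjusted p = 0.0063). With DHT in shScramble cells the log2 fold change was 1.19 ± 0.43, which missed the limit (edgeR adjusted p = 0.0552). The columns disagreed on this value, at 2.09 in the first (adjusted p = 0.0371, called) and 0.15 in the second (adjusted p = 0.912). The difference between the responses of the lines, -0.74 ± 0.66, had an adjusted p of 0.643. Each library has a pair of columns in the table, and their CDK6 counts differed by up to 11.1-fold after scaling, against at most 1.41-fold for the other 9 genes. The cause of this gap was not tested. With the second column alone, the CDK6 difference at DHT+ was -1.67 and was no longer called, and the difference of responses turned to 0.33. CDK4 was not called in any comparison, with log2 fold changes of 0.02 ± 0.06 and 0.14 ± 0.06 for DHT in shScramble and shTMEFF2.

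The genes of S-phase entry came next. CDK2, the kinase that cyclins E and A activate, was measured at 43.8, 52.7 and 51.6 CPM in shScramble DHT- and 77.8, 80.3 and 70.0 CPM in shScramble DHT+. In shTMEFF2 cells CDK2 was measured at 56.0, 56.4 and 65.2 CPM without DHT and 94.0, 99.99 and 112 CPM with it. The DHT+ and DHT- libraries did not overlap in either line, and at both DHT levels every shTMEFF2 library lay above every shScramble library. CDK2 rose with DHT 1.54-fold in shScramble (log2 0.63 ± 0.10, edgeR adjusted p = 4.25e-04) and 1.72-fold in shTMEFF2 (log2 0.79 ± 0.10, adjusted p = 6.08e-04). The difference between these responses was 0.16 ± 0.14, with an edgeR adjusted p of 0.622. In shTMEFF2 cells it was higher by 0.26 ± 0.10 at DHT- (edgeR adjusted p = 0.245) and by 0.42 ± 0.10 at DHT+ (adjusted p = 0.00953), the latter 1.34-fold and under the limit. The shScramble call lay close to 1.5-fold: the log2 value was 0.55 without shScramble DHT- replicate 1, 0.56 with library-size scaling in place of TMM, and 0.54 in the second column, each under the limit.

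CCNE2, one of the paired E-type cyclins, was measured at 20.9, 25.6 and 22.4 CPM in shScramble DHT-, 25.5, 35.3 and 30.3 CPM in shScramble DHT+, 23.1, 23.6 and 28.4 CPM in shTMEFF2 DHT-, and 42.8, 41.3 and 40.0 CPM in shTMEFF2 DHT+. All shTMEFF2 DHT+ libraries were above all others, and the shScramble groups overlapped slightly. It rose 1.65-fold with DHT in shTMEFF2 (log2 0.72 ± 0.12, edgeR adjusted p = 0.00298) and was 1.32-fold higher in shScramble (log2 0.40 ± 0.12, adjusted p = 0.0284). CCNE1, its paralog, was measured at 17.1, 16.5 and 13.7 CPM in shScramble DHT-, 15.9, 16.9 and 16.1 CPM in shScramble DHT+, 14.5, 14.6 and 17.7 CPM in shTMEFF2 DHT-, and 19.8, 21.7 and 21.2 CPM in shTMEFF2 DHT+. Here too the shTMEFF2 DHT+ libraries were the highest, while the other 3 groups overlapped. With DHT the log2 fold change of CCNE1 was 0.05 ± 0.11 in shScramble (edgeR adjusted p = 0.767) and 0.42 ± 0.11 in shTMEFF2 (adjusted p = 0.0263), the latter 1.34-fold. The shTMEFF2 value of CCNE1 was 0.25 in the first column (edgeR adjusted p = 0.354) and 0.60 in the second (adjusted p = 0.0264), where it was called. Differences of the responses were 0.32 ± 0.17 for CCNE2 and 0.37 ± 0.16 for CCNE1, with edgeR adjusted p-values of 0.381 and 0.243.

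CCNA2, the cyclin of S phase and G2, was measured at 32.6, 45.1 and 42.1 CPM in shScramble DHT- and 42.9, 63.4 and 53.1 CPM in shScramble DHT+. Without DHT the shTMEFF2 libraries stood at 33.5, 31.9 and 46.3 CPM, and with DHT at 59.9, 76.1 and 90.1 CPM. DHT+ and DHT- overlapped in shScramble but not in shTMEFF2. CCNA2 rose 2.02-fold in shTMEFF2 (log2 1.02 ± 0.19, edgeR adjusted p = 0.00486), whereas in shScramble the log2 value was 0.41 ± 0.19 (adjusted p = 0.128). The difference between the responses was 0.60 ± 0.27, with an edgeR adjusted p of 0.264, and at DHT+ the lines differed by 0.50 ± 0.19 (adjusted p = 0.0913) with overlapping libraries.

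CDK1, the mitotic kinase, had the largest estimated DHT response of the 10 in shTMEFF2 cells, with CCNA2 within its error. It was measured at 159, 188 and 175 CPM in shScramble DHT-, 202, 270.5 and 216 CPM in shScramble DHT+, 166, 145 and 191 CPM in shTMEFF2 DHT-, and 320.4, 349 and 370.1 CPM in shTMEFF2 DHT+. Without DHT the lines overlapped, with DHT every library was higher than any DHT- library, and the shTMEFF2 DHT+ libraries stood above all. In shTMEFF2 CDK1 rose 2.07-fold (log2 1.05 ± 0.12, edgeR adjusted p = 4.19e-04), and in shScramble it was 1.32-fold higher (log2 0.40 ± 0.12, adjusted p = 0.0259). The difference between the responses was 0.65 ± 0.17 (edgeR adjusted p = 0.0429). At DHT+ the lines differed 1.51-fold (log2 0.60 ± 0.12, edgeR adjusted p = 0.00448). Both of the last calls depended on single libraries. At DHT+ the log2 value was 0.52 without shScramble DHT+ replicate 1, 0.55 without shScramble DHT+ replicate 3 and 0.56 without shTMEFF2 DHT+ replicate 3, each under 1.5-fold. The CDK1 difference of responses kept an adjusted p of at most 0.05 only without shScramble DHT- replicate 1, shScramble DHT+ replicate 2 or shTMEFF2 DHT- replicate 3, and without any one of the other 9 libraries it ranged from 0.56 to 0.71 with edgeR adjusted p-values of 0.0544 to 0.106.

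The B-type cyclins activate CDK1 at entry into mitosis. CCNB1 was measured at 105, 132 and 109 CPM in shScramble DHT-, 101, 136 and 109 CPM in shScramble DHT+, 102, 94.5 and 127 CPM in shTMEFF2 DHT-, and 128, 182 and 187 CPM in shTMEFF2 DHT+. CCNB2 was measured at 39.0, 49.0 and 40.6 CPM in shScramble DHT-, 38.5, 53.1 and 46.3 CPM in shScramble DHT+, 34.4, 32.2 and 49.7 CPM in shTMEFF2 DHT-, and 55.0, 67.8 and 77.3 CPM in shTMEFF2 DHT+. For both genes the shScramble groups overlapped almost fully, and the shTMEFF2 groups did not overlap. In shTMEFF2 CCNB1 rose 1.54-fold (log2 0.62 ± 0.16, edgeR adjusted p = 0.0251) and CCNB2 1.72-fold (log2 0.78 ± 0.18, adjusted p = 0.0121). In shScramble the log2 values were 0.00 ± 0.16 for CCNB1 and 0.10 ± 0.18 for CCNB2, with edgeR adjusted p-values of 0.999 and 0.714. Differences of the responses, 0.62 ± 0.23 and 0.68 ± 0.25, did not pass (edgeR adjusted p = 0.163 and 0.158). The CCNB1 rise was lost without shTMEFF2 DHT- replicate 1 (0.58) or 2 (0.53) or without shTMEFF2 DHT+ replicate 2 (0.56) or 3 (0.53), and the CCNB2 rise without shTMEFF2 DHT- replicate 1 (0.70) or 2 (0.66) or shTMEFF2 DHT+ replicate 3 (0.67), with edgeR adjusted p-values of 0.0794 to 0.103 and 0.0544 to 0.0570, respectively. In the second column alone CCNB1 was at 0.58 and was not called either.

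Replicates varied together for many of these genes. The lowest value fell in replicate 1 for 7 of the 10 genes in shScramble DHT- and for 6 in shScramble DHT+. In shTMEFF2 cells the lowest fell in replicate 1 for 5 genes at DHT- and 9 at DHT+. The highest fell in replicate 2 for 7 genes in shScramble DHT- and 8 in shScramble DHT+. In shTMEFF2 cells the highest fell in replicate 3 for 8 genes at DHT- and 5 at DHT+. The within-group SD on the log2 scale was 0.28 for CCNA2, 0.255 for CCNB2 and 0.237 for CCNB1, all above the median of 0.156 over all genes, and 0.168 for CDK1 and 0.126 for CDK2. CDK6 had the widest replicates of the 10, at 0.601.

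**Figure D3:**
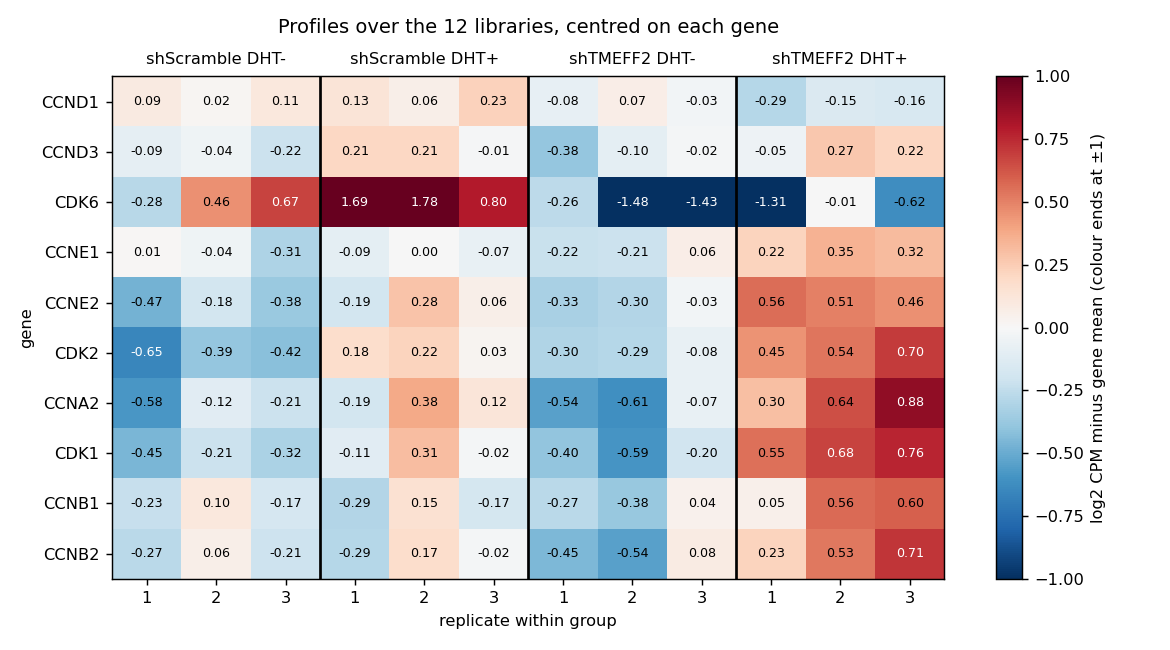
Log2 CPM of each gene (rows) in each library (columns, replicates 1 to 3 within the 4 groups) minus that gene's mean over the 12 libraries, with colour ending at ±1. On average CCNA2, CDK1, CCNB1 and CCNB2 are highest in shTMEFF2 DHT+, CDK6 is highest in shScramble DHT+, and CCND1 varies little.

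Profiles over the 12 libraries were compared by the root mean square difference of log2 CPM after each gene was centred on its own mean. Among the 10 genes the closest profiles were those of CCNB1 and CCNB2, at 0.105, then CCNA2 and CDK1, at 0.125, and CCNE2 and CDK1, at 0.145. Over 13440 other genes with a mean of at least 1 CPM, the gene nearest to CCNA2 was KIF11 (0.058), to CCNB1 CDC20 (0.0761), to CCNB2 TPX2 (0.0689), to CDK1 KIAA1524 (0.0882) and to CDK2 MCM8 (0.097). For the other genes the nearest were C6orf89 for CCND1 (0.0641), POLR3K for CCND3 (0.0644), NUP107 for CCNE1 (0.0913) and MIS18A for CCNE2 (0.102). No gene came close to CDK6: the nearest, TWIST1, differed by 0.46, beside a spread of CDK6 around its own mean of 1.07. These are descriptions over libraries that share groups.

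Genes that act as alternatives were then set against each other within each library, as a difference of log2 CPM, which cancels any factor common to the library. For CDK1 minus CDK2 the values were 1.86, 1.84 and 1.76 in shScramble DHT-, 1.37, 1.75 and 1.62 in shScramble DHT+, 1.56, 1.36 and 1.55 in shTMEFF2 DHT-, and 1.77, 1.80 and 1.72 in shTMEFF2 DHT+. All DHT+ libraries were lower than the DHT- libraries in shScramble and higher in shTMEFF2. The mean shifts were -0.24 and 0.27, each with p = 0.1 in a two-sided exact permutation test of 3 against 3 libraries, the smallest p this design allows (0.229 after adjustment over 16 tests). CCND1 minus CCND3 was lower with DHT in shTMEFF2, with a shift of -0.50, and lower in shTMEFF2 than in shScramble at DHT+, with a shift of -0.35, both without overlap and with the same exact permutation p of 0.1. CCNE1 minus CCNE2 shifted by -0.30 with DHT in shTMEFF2, without overlap, and by -0.33 in shScramble, with overlap (exact permutation p = 0.1 and 0.2). CCNB1 minus CCNB2 moved least, by -0.10 in shScramble and -0.18 in shTMEFF2 (exact permutation p = 0.1 and 0.2).

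**Figure D4:**
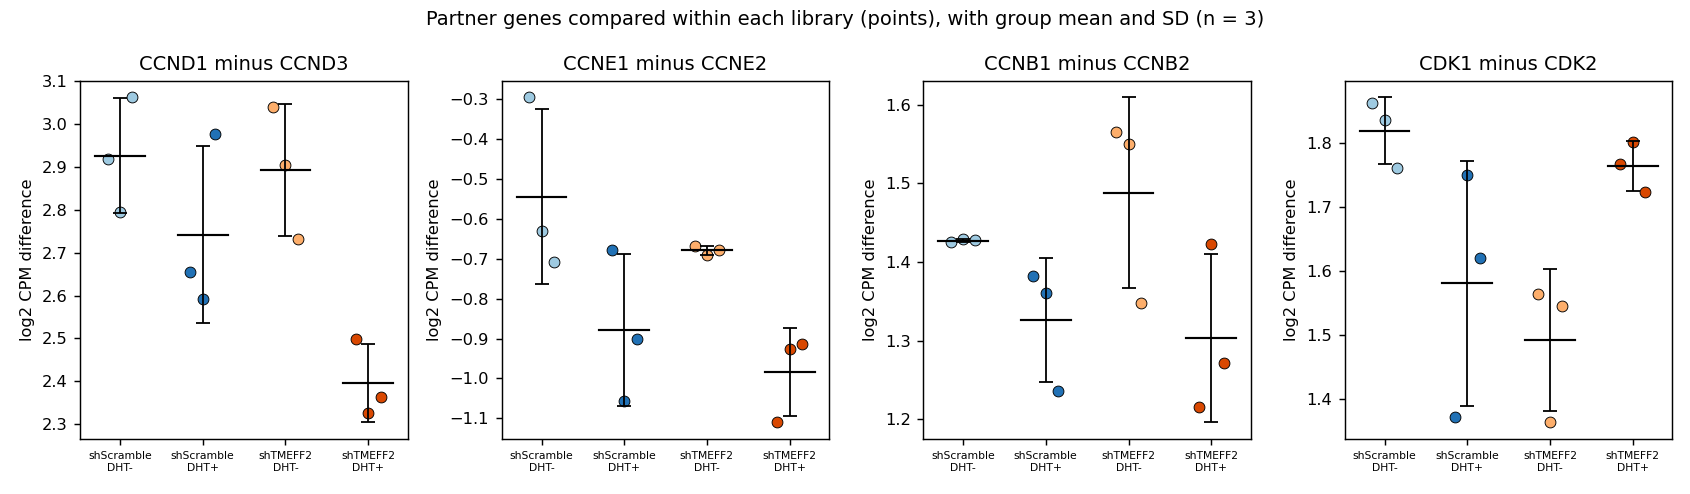
Difference of log2 CPM between partner genes in each library (points; vertical axes, log2 units, not starting at 0) by group, with group mean and SD (n = 3). CDK1 minus CDK2 moves down with DHT in shScramble, from a mean of 1.82 to 1.58, and up in shTMEFF2, from 1.49 to 1.76.

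The rest of the machinery was described by lists of genes written from general knowledge. Of the other cyclins, 20 of 22 were in the table and 18 could be tested. With DHT in shScramble none of the 18 rose and 2 fell, CCNG2, a cyclin linked to cell cycle arrest, by 1.02 on the log2 scale (edgeR adjusted p = 2.30e-05), and CCNO, which stood at 0.0957 ± 0.0829 CPM with DHT and 0.436 ± 0.12 CPM without and so rests on very few reads. In shTMEFF2, 1 rose, CCNF, which forms part of a ubiquitin ligase, by 0.59 ± 0.13, and none fell. Over all genes tested, 5.45% rose and 6.45% fell in shScramble, and 3.28% rose and 1.6% fell in shTMEFF2. The median log2 fold change of these 18 was -0.16 in shScramble and -0.06 in shTMEFF2. At DHT+ CCNJL and CCNO were called higher in shTMEFF2 than in shScramble, from 0.300 to 1.43 and from 0.0957 to 0.519 CPM. None was called lower, where 3.03% of all genes were higher and 3.74% lower. The DHT response in shTMEFF2 minus that in shScramble was above 0 for 14 of the 18, against 50.9% of all genes. It passed for CCNG2 (0.73 ± 0.15), CCNH (0.44 ± 0.11) and CCNI (0.36 ± 0.09), with edgeR adjusted p-values of 0.0155, 0.0415 and 0.0359. Of all genes, 1.65% passed with a higher and 3.29% with a lower response. In shScramble and shTMEFF2, the log2 values with DHT were -1.02 and -0.29 for CCNG2, and 0.10 and 0.54 for CCNH. For CCNI they were -0.50 and -0.13. CCNA1 and CCND2, at 1 to 9 and 0 to 3 counts, and CDK15, at 0 to 9 counts, were too low to test.

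Of 17 other CDKs tested, 1 fell with DHT in shScramble and none was called in shTMEFF2. The shares over all genes were 5.45% rising and 6.45% falling in shScramble, and 3.28% rising and 1.6% falling in shTMEFF2. CDK8, a kinase of the Mediator complex that acts in transcription, fell from 84.8 ± 11 to 33.3 ± 4.42 CPM (SD, n = 3) in shScramble, by 1.35 on the log2 scale (edgeR adjusted p = 3.57e-06). Its DHT response in shTMEFF2 was smaller, at -0.42 ± 0.11 (edgeR adjusted p = 0.0286, under 1.5-fold), and differed from that in shScramble by 0.93 ± 0.16 (adjusted p = 0.00512). Of the 8 CDK inhibitors, CDKN1A (p21) fell in shScramble by 0.61 on the log2 scale, from 237 ± 21.8 to 156 ± 12.1 CPM, and none rose. In shTMEFF2 CDKN3, a phosphatase that acts on CDKs, and CDKN2C (p18) rose by 0.86 ± 0.16 and 0.67 ± 0.17, and none fell. CDKN1C was called lower in shTMEFF2 at DHT+, at 0.463 ± 0.247 against 1.27 ± 0.677 CPM, with overlapping libraries. Among all genes, 3.74% were called lower in that comparison.

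Among 8 genes that switch CDK activity directly, which are the CDC25 phosphatases, the inhibitory kinases WEE1 and PKMYT1, the CKS subunits and MNAT1, 2 rose with DHT in shScramble and 5 in shTMEFF2, with none falling. The median log2 fold change was 0.33 and 0.73. CDC25A, which removes the inhibitory phosphate from CDKs, rose by 0.88 ± 0.12 and 0.95 ± 0.12, and PKMYT1, which adds it to CDK1, rose by 0.76 ± 0.17 and 0.94 ± 0.17. Of 12 genes linked to cyclin turnover, none rose in shScramble and 4 rose in shTMEFF2, and none fell in either line. Among those that rose were SKP2 (0.68 ± 0.10), UBE2C (0.88 ± 0.18) and FBXO5 (0.90 ± 0.15). The list does not hold only genes that promote breakdown, so these rises do not give a direction of turnover. Of all genes tested, 5.45% rose and 6.45% fell in shScramble, and 3.28% rose and 1.6% fell in shTMEFF2. Of 20 E2F, retinoblastoma and MuvB factors, which control the transcription of cyclins, 4 rose in shScramble and 7 in shTMEFF2, and none fell. E2F7, a repressive E2F, rose by 0.84 ± 0.15 in shScramble and 1.27 ± 0.14 in shTMEFF2. The log2 fold changes of E2F1, an activating E2F, were 0.83 and 0.98 in the same order, those of E2F8 were 0.65 and 1.11, and those of E2F2 were 0.49 and 0.99. At DHT+ 1 of these 20 was called between the lines, MYBL2, a partner of the MuvB complex, at 92.7 ± 14.4 CPM in shTMEFF2 against 60.4 ± 7.96 CPM in shScramble. Among all genes, 3.03% were called higher and 3.74% lower in that comparison. None of the genes of these last 3 lists had a difference of DHT responses with an edgeR adjusted p of at most 0.05. By that limit 1.65% of all genes had a higher and 3.29% a lower response in shTMEFF2.

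**Figure D5:**
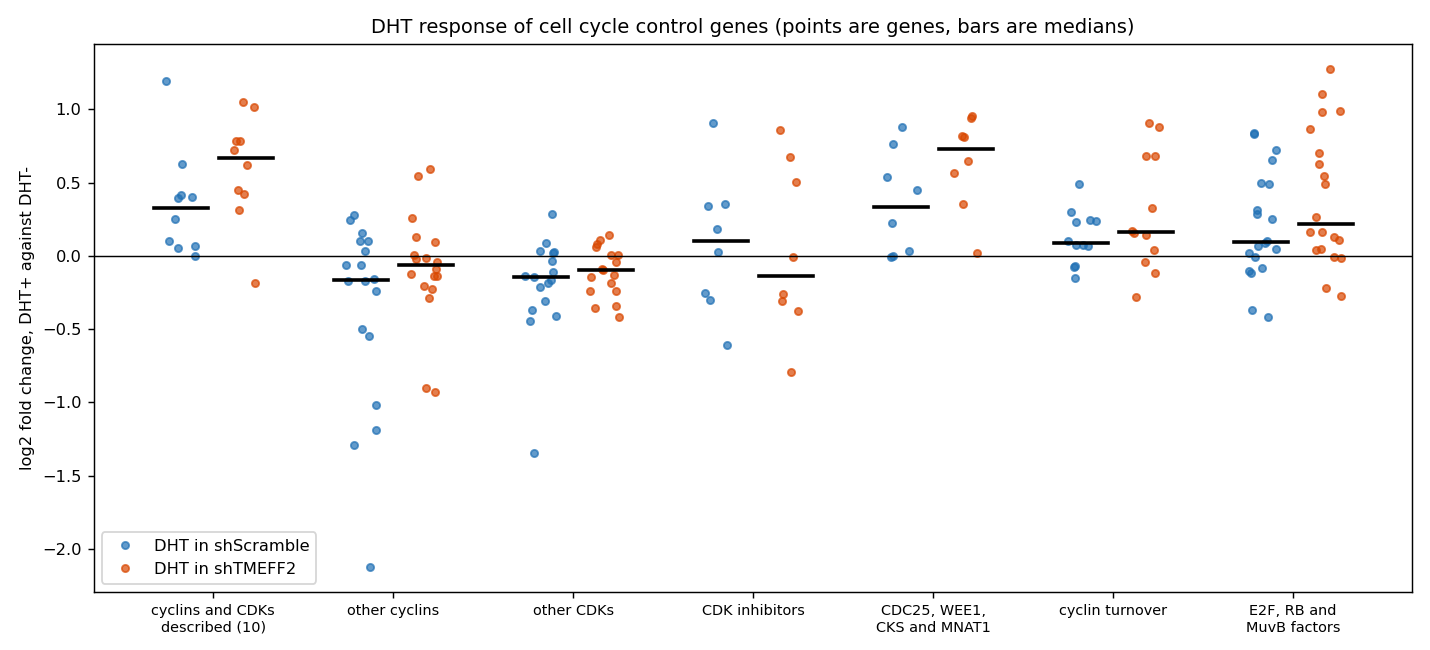
Log2 fold change with DHT (vertical axis) of each tested gene (points) in the 10 cyclins and CDKs and in 6 further lists, for shScramble (blue) and shTMEFF2 (orange), with list medians as bars. The 10 genes have medians of 0.33 and 0.67, the CDK activity switch genes 0.33 and 0.73, and the other cyclins -0.16 and -0.06.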

How the data were processed

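Per the methods of the study, the authors checked reads with FastQC, removed contaminants, trimmed with Trimmomatic, quantified transcripts with kallisto 0.42.3 on GRCh38 and deposited expected counts (estimated counts scaled by transcript length) for each gene. The table has 24 columns, 2 per library, which were taken as repeat runs, summed and rounded. All columns were assigned to a library. The median chi-square of genes, relative to sampling noise alone, was 2.48 to 2.77 between the columns of a library. It was 4.91 to 6.30 between replicates of a group, so none of these 12 pairs was a duplicate. Pairs of libraries from different groups were not compared in this way. The columns of a library differed by more than sampling noise, so taking them as repeat runs is an assumption.

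All 12 libraries were fitted in R 4.3.3 with edgeR 4.0.16 (filterByExpr with minimum count 10 and minimum total 15, TMM factors 0.955 to 1.037, 1 coefficient per group, quasi-likelihood test). P-values were adjusted by Benjamini-Hochberg over 15419 genes. Genes were called at 1.5-fold and an adjusted p of 0.05, and differences of responses on the adjusted p alone. DESeq2 1.42.0 and limma 3.58.1 served as alternatives, with other scaling, filters, samples and single columns. In simulated data for DHT in shTMEFF2 (15211 genes), recovery was counted on an adjusted p of at most 0.05 alone, without the 1.5-fold limit. The fit recovered 58.5% of 65 genes changed 1.5-fold, 71.2% of 66 changed 2-fold and 92.3% of 65 changed 3-fold. These shares do not give how many such genes would be called, and fewer genes were changed there than were called in the data. Profiles and partner differences used log2 CPM with a prior count of 2. Gene positions and overlaps came from GENCODE on GRCh38.

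Named genes were the 10 members, TMEFF2, CDK4, the gene nearest to each member, and for each list and comparison up to 3 called genes at either end of the fold changes. KLK3 was named as a check of the hormone. Of the markers of other cell types, 1 is not reported here. The members and lists were chosen with earlier results of these data known.

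Same-numbered libraries had correlated deviations of -0.002 to 0.169 (median 0.072, 18 pairs, 3 over 0.1). For other numbers they were -0.14 to 0.066 (median -0.028, 36 pairs), and 12 of 12 libraries correlated best with their own number. The sources do not state that a number marks a batch or a pair. The reported fits leave the number out, and a replicate block served as an alternative.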

Additional observations from a re-analysis of the deposited data

Results flagged for a closer look

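CDK1 was picked out because its DHT response differed between the lines by a test of the difference itself. Its log2 fold change with DHT was 0.40 in shScramble and 1.05 in shTMEFF2, a difference of 0.65 ± 0.17 (SE), with an adjusted p of 0.0429 by edgeR's quasi-likelihood test. All 3 shTMEFF2 DHT+ libraries were above all shScramble DHT+ libraries. The difference was 0.56 to 0.80 over the fits that left out 1 library, and in 9 of those 12 fits the adjusted p was above 0.05.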

How the results depend on the processing

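The number of the 10 genes called for DHT in shScramble was 1 (CDK2) as reported, 2 (CDK2 and CDK6) with DESeq2, without a filter, with the compared groups alone, with limma-voom and in the first column, and 0 with library-size scaling and in the second column. It was 0 to 2 when 1 library was left out, and for DHT in shTMEFF2 it was 4 to 6 instead of 6. At DHT+ the 2 calls became 1 (CDK1) with genes above 5 CPM only, since CDK6 was then not tested, and 1 in the second column, and 1 to 4 with 1 library left out. For the difference of responses the 1 call became 0 in the first column (CDK1 0.63) and 0 to 2 with 1 library left out. With the replicate block the members called were 1, 6, 0, 2 and 1, as in the reported fits, and no other call among them changed. By the adjusted p alone the block brought CCNA2 to 0.0303 for DHT in shScramble and CCNA2 and CCNB2 to 0.0182 and 0.0212 at DHT+, all by edgeR, and took CCNE1 at DHT+ to 0.0506, while calls over all genes at DHT- went from 88 to 144 and were 1120 instead of 761 for the difference of responses. Every library correlated best with its own number, in 12 of 12.

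Signs turned only for values that were not called. With DHT in shScramble, CCNB1 was 0.0012 with DESeq2 and 0.034 in the second column, CCND1 was -0.0010 with library-size scaling and -0.019 in the first column, and CCNE1 was -0.014 with library-size scaling. At DHT- CCND3 was 0.019 and CCNE2 -0.062 in the second column and CCNE1 0.066 in the first. In the second column CCND3 was -0.048 at DHT+ and -0.067 for the difference of responses, and CDK6 was 0.33 for the latter. With 1 library left out, the ranges that crossed 0 were, for DHT in shScramble, CCNB1 -0.14 to 0.11, CCNB2 -0.012 to 0.21 and CCNE1 -0.036 to 0.12. At DHT- they were CCNA2 -0.28 to 0.0011, CCNB1 -0.23 to 0.0079, CCND3 -0.11 to 0.056, CCNE1 -0.11 to 0.052, CDK1 -0.16 to 0.033 and CCND1 minus CCND3 -0.11 to 0.046. At DHT+ they were CCND3 -0.057 to 0.10 and CCNB1 minus CCNB2 -0.082 to 0.021, and for the difference of responses CCND3 -0.043 to 0.15. The gene nearest to CDK6 became CSPG4P11 (0.492) with a prior count of 0.5. The causes were not tested. Of the log2 values of single genes under alternatives, 961 kept their direction and side of the limits, 25 lost and 15 gained a call, and 34 turned sign.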

Other observations

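The pair of columns that make up a library differed most for CDK6. In shScramble DHT+ replicate 2 the first column held 86.5 and the second 8.17 estimated counts of CDK6, and in shScramble DHT- replicate 1 they held 21.1 and 1.72. In shScramble DHT- replicate 3 the order was the other way, with 4.69 and 38.6. In the shTMEFF2 libraries the CDK6 columns were closer, from 3.51 to 16 in the first and 4.04 to 11.6 in the second. For CDK1 the columns differed by at most 1.09-fold after scaling, and for CCNA2 by at most 1.11-fold.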
